A study of Mus musculus with 6 samples.

Results

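Sprr1a, Sprr1b, Sprr2a1, Sprr2d, Sprr2h, Sprr3, Ivl and Lor encode precursor proteins of the cornified envelope, the protein shell of the outermost epidermal cells. They were taken as 8 genes with every probe set that the annotation of the MOE430 2.0 array assigns to them, which gave 13 of the 45037 probe sets tested. Their mRNA was measured in back skin of mouse embryos at E15.5, in 3 samples of genotype Fzd6 +/- (control) and 3 of genotype Fzd6 -/- (knockout), all on a C57BL6/129 mixed background. The controls carry 1 mutant copy of Fzd6, so the comparison is between the absence and a reduced dose of this Frizzled receptor, which acts in planar cell polarity. Samples are labelled as biological replicates without saying whether each is 1 embryo, so the spread between them may be partly technical. Values are RMA expression levels on the log2 scale, on which a difference of 1 is a doubling, and the small number of arrays limits the precision of each difference. Levels of different probe sets cannot be set against each other, since each binds its own probes.

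The cornified envelope replaces the cell membrane of keratinocytes as they leave the granular layer. Involucrin, encoded by Ivl, is laid down early beneath the membrane, and loricrin, encoded by Lor, is added later as the bulk of the envelope, with small proline-rich proteins (Sprr) bridging between them. Transglutaminases join these precursors into an insoluble sheet. In the mouse embryo the barrier is built late in gestation, after stratification has begun and while the periderm, a transient outer layer, still covers the skin. Sprr genes are expressed in periderm, oral and oesophageal epithelium and stressed epidermis as well as in the developing barrier.

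The promoters are shown because the 8 genes lie together in the epidermal differentiation complex on chromosome 3 and each had at least 1 probe set with a higher mean in the knockout. The sequences are from RefSeq on build GRCm38.p6, run 5′ to 3′ on the gene's strand, and stop before the first base of any annotated transcript of the gene. This leaves 250 bases up to the start used for the windows, except for Ivl, where a transcript with an earlier start leaves 195 bases that end 55 bases short of it. All 8 genes had an entry in the promoter table, and the 6 shown are those of involucrin and loricrin, of the Sprr genes with the widest differences (Sprr1a and Sprr3) and of Sprr2d and Sprr2h, which share a stretch. Capitals mark the AP-1 motif TGANTCA, the TATA box TATAAA and the octamer ATTTGCAT, each searched on both strands. AP-1 is the Fos and Jun dimer, and the octamer is the site of POU-domain factors.
Sprr1a, chr3:92485882-92486131, minus strand: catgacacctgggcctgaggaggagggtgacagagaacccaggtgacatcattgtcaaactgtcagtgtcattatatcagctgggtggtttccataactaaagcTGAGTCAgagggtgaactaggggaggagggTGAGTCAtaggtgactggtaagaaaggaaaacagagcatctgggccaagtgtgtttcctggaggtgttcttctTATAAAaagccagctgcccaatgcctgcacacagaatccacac
Sprr3, chr3:92458721-92458970, minus strand: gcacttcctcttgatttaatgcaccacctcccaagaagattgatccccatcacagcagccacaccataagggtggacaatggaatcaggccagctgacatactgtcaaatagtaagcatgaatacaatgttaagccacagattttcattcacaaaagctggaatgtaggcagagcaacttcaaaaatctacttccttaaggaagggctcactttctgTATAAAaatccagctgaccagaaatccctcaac
Ivl, chr3:92573791-92573985, minus strand: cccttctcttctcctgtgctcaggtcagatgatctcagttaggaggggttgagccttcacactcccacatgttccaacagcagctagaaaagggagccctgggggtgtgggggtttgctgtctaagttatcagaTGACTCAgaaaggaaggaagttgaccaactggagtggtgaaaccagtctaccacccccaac
Lor, chr3:92083143-92083392, minus strand: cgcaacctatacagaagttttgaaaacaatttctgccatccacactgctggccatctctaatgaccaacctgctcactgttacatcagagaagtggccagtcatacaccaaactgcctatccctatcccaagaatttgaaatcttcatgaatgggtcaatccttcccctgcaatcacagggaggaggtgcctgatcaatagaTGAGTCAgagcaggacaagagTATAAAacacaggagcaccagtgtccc
Sprr2d, chr3:92338890-92339139, plus strand: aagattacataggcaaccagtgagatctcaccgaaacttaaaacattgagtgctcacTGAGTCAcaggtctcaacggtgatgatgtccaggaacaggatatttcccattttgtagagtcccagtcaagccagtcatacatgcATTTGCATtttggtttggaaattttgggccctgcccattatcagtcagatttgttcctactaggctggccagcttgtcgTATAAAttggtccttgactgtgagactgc
Sprr2h, chr3:92385435-92385684, plus strand: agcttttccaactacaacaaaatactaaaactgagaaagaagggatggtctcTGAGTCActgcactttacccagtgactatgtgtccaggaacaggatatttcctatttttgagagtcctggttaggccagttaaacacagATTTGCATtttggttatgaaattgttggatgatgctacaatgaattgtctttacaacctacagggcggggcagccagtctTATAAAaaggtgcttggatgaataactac
An AP-1 match lay in the windows of 6 of the 8 genes (250 bases before to 50 after the start), against 7.81% of the 32851 windows of all genes. Sprr1a held 2 AP-1 matches, which began 146 and 116 bases before the start. Ivl, Lor, Sprr1b, Sprr2d and Sprr2h held 1 each, in Lor only 48 bases before the start. The match in Sprr1b reads TGAATCA, while those of the other genes read TGAGTCA or TGACTCA. No match was found in the windows of Sprr3 and Sprr2a1. A TATA box lay in 7 of the 8 windows against 13.6% of all, and Sprr2a1 was the exception. That of Ivl, 29 bases before the start, falls after the end of the sequence printed. Among the 8 genes the octamer lay only in Sprr2d and Sprr2h, 108 and 109 bases before the start, against 1.74% of all windows. These 2 promoters also share an unbroken run of 22 bases, tgtccaggaacaggatatttcc, the longest run shared by any pair of the 8 upstream sequences. The motif CACCC, the core of sites bound by Kruppel-like factors, was found in 5 of the 8 windows against 57.5% of all, a share near the background. A match describes letters in a window, and binding was not measured.

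**Figure D1:**
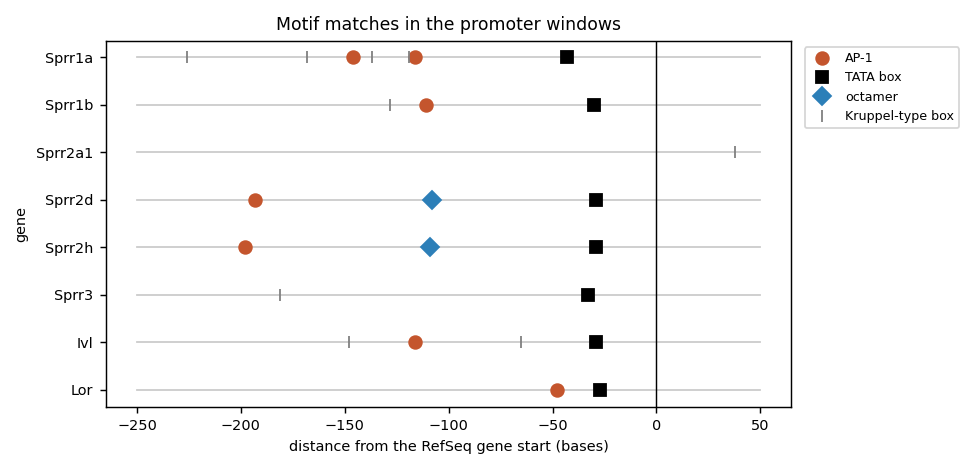
Positions of motif matches in the promoter windows of the 8 genes. The x axis is the distance in bases from the RefSeq gene start, negative before it, each row is a gene, and each symbol marks where a match on either strand begins. AP-1 matches appear in 6 of the 8 rows, and octamer matches in those of Sprr2d and Sprr2h.

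The arrays were compared before the members. Array medians lay between 5.99 and 6.03, and correlations between arrays over all probe sets between 0.985 and 0.996. Fzd6 itself had lower knockout values without overlap in 2 of its 3 probe sets, by 0.44 in the brightest (9.38 ± 0.23 in control and 8.93 ± 0.19 in knockout, SD, n = 3) and by 0.67 in another (6.13 ± 0.074 and 5.46 ± 0.089), and neither passed limma's adjusted p (0.909 and 0.864). The third differed by −0.0097, with 6.10 in control and 6.09 in knockout skin. Where these probes lie relative to the deleted part was not known. Epidermal keratins were strong on every array, with Krt5 at 12.22 to 13.07, Krt14 at 12.22 to 13.36 and Krt10 at 13.92 to 14.34, as the labelled tissue requires. Knockout 1 stood apart from the other arrays: fibroblast markers (11 measured) lay 0.62 and endothelial and pericyte markers (12 measured) 0.87 below their own mean over the arrays there. Control 1 was next lowest in both, at −0.33 and −0.42, and the other 4 arrays lay between 0.15 and 0.36 in both lists.

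Envelope precursor transcripts had higher values in the knockout in 12 of the 13 probe sets (50.6% of all probe sets did) and in all 8 genes by their brightest probe set, and none passed the test. The limma adjusted p over all 45037 probe sets lay between 0.909 and 0.981 for the members, and the share of all probe sets called was 0.0%. The median difference over the 8 genes was 0.65, against 0.0070 over the 18193 named genes on the array. The range ran from 0.18 for the Sprr2a copies to 1.35 for Sprr3. An unadjusted limma p under 0.05 with a higher value was found for 7 of the 13 member probe sets, against 2.58% of all probe sets. All Lor probe sets are among these 7. In this and the other counts of probe sets, those of the same gene are not independent of each other. In 6 of the 13, every knockout array lay above every control array, against 6.55% of all probe sets. A mean difference above 0.5 was found for 7 of the 13, against 0.735% of all. The genes were chosen with earlier results of these data known, so these counts describe the members and are no test of them. Whole skin was measured, so more cells of the outer layers and more RNA per cell cannot be told apart.

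**Figure D2:**
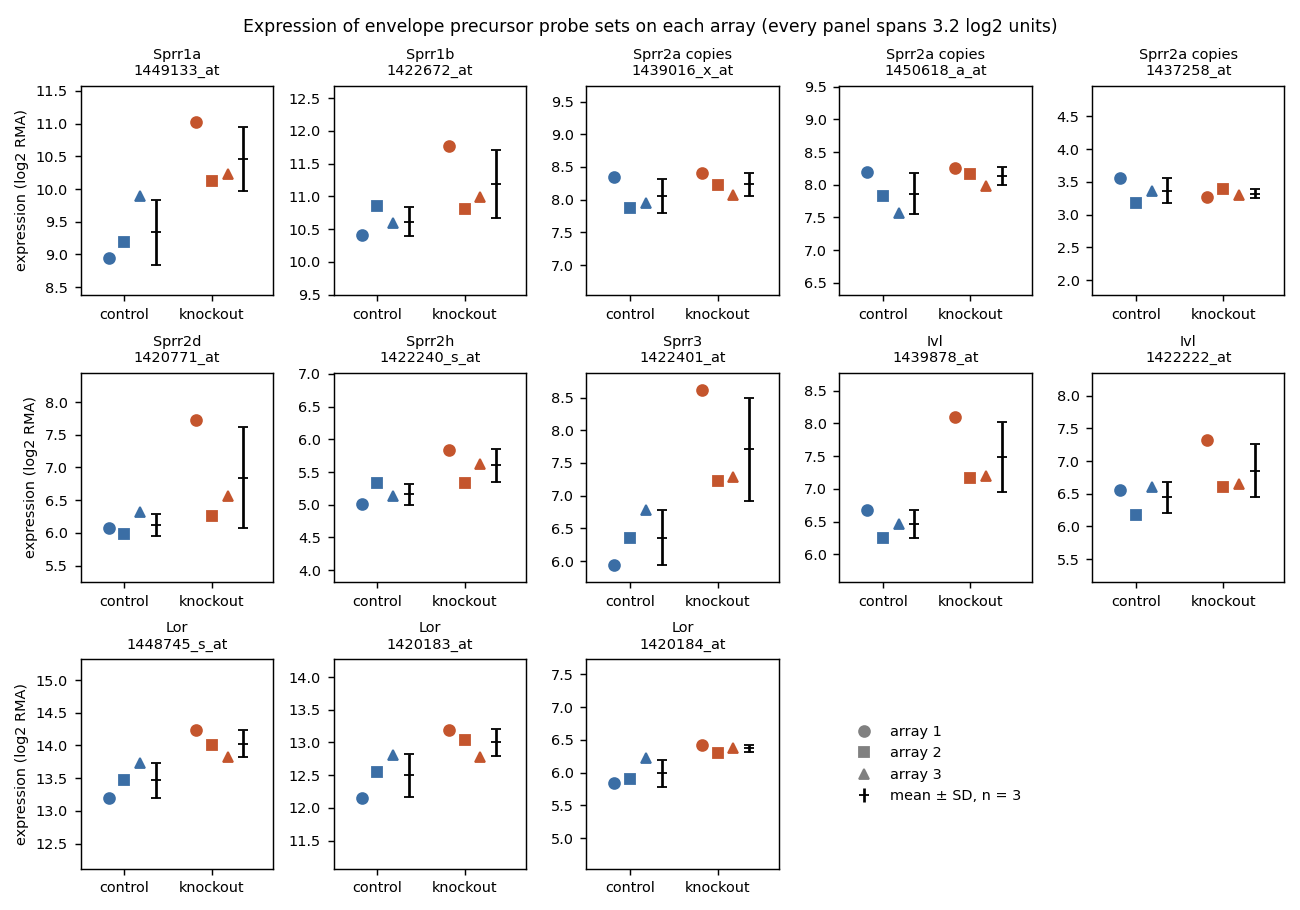
Expression of the 13 member probe sets on each array. The y axis is the log2 RMA level, every panel spans the same 3.2 units, symbols mark arrays 1 to 3 of each genotype, and the bars give mean ± SD (n = 3). Knockout 1 is the highest array in 12 of the 13 panels.

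Involucrin, the early scaffold of the envelope, was read by 2 probe sets of unequal response. In the brighter (1439878_at) the controls lay at 6.67, 6.25 and 6.46 and the knockouts at 8.10, 7.17 and 7.19. Every knockout array thus lay above every control, and knockout 1 lay well above the other two. The difference was 1.02 (95% confidence interval 0.43 to 1.61, limma adjusted p = 0.909), a fold change of 2.03 (1.35 to 3.06). Without knockout 1 it was 0.72. In the other (1422222_at) the controls lay at 6.56, 6.18 and 6.61 and the knockouts at 7.33, 6.60 and 6.64. Here the groups overlapped by a narrow margin, with control 3 above knockout 2. The difference was 0.41 (−0.088 to 0.90), and without knockout 1 it was 0.17. The 2 probe sets thus agreed in sign and differed in size, and which follows the transcript more closely was not tested.

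Loricrin, the major protein of the mature envelope, was read by 3 probe sets. The brightest has the suffix _s_at, which marks probes shared by several transcripts, although the annotation assigns it to Lor alone. In the brightest (1448745_s_at) the controls lay at 13.19, 13.48 and 13.73 and the knockouts at 14.24, 14.01 and 13.82. All knockouts lay above all controls, although knockout 3 and control 3 were only 0.097 apart. The difference was 0.56 (0.19 to 0.93, limma adjusted p = 0.909), a fold change of 1.47 (1.14 to 1.91). The highest values on the arrays were 14.71 to 14.82, so these readings sat close to the top of the scale. The next probe set (1420183_at) gave 12.15, 12.55 and 12.80 in control and 13.19, 13.03 and 12.78 in knockout skin. The groups overlapped there, control 3 lying above knockout 3, and the difference was 0.50 (0.082 to 0.92). The dimmest (1420184_at) gave 5.84, 5.91 and 6.22 against 6.42, 6.31 and 6.38. The groups did not overlap, and the difference was 0.38 (0.11 to 0.65). Of the 3 genes read by several probe sets, loricrin had those closest in difference, from 0.38 to 0.56, and without knockout 1 they lay from 0.35 to 0.45. Without control 1 they were lower, at 0.42, 0.33 and 0.31 from the brightest to the dimmest.

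Sprr1a and Sprr1b encode the small proline-rich proteins that join loricrin and involucrin in the envelope, and Sprr1a is also known as a gene switched on by injury and stress. Sprr1a was at 8.94, 9.19 and 9.89 in control and at 11.02, 10.13 and 10.22 in knockout skin. The groups did not overlap, and control 3 came closest to the knockout arrays. The difference was 1.12 (0.41 to 1.83, limma adjusted p = 0.909), a fold change of 2.17 (1.33 to 3.55), and it was 0.84 without knockout 1. Sprr1b was at 10.41, 10.85 and 10.59 in control and at 11.77, 10.81 and 10.99 in knockout skin. Knockout 2 lay just below control 2, so the groups overlapped. The difference was 0.58 (−0.00016 to 1.15), and without knockout 1 it fell to 0.28.

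Sprr3 is the family member typical of oral and oesophageal epithelium, and it had the widest difference of the 13 probe sets. The controls lay at 5.95, 6.35 and 6.78 and the knockouts at 8.62, 7.22 and 7.28. All knockouts lay above all controls. The difference was 1.35 (0.45 to 2.25, limma adjusted p = 0.909), a fold change of 2.55 (1.36 to 4.75), and without knockout 1 it was 0.89. The spread within the knockouts, 1.39 from lowest to highest, was as wide as the difference itself. In periderm and simple epithelium markers, a list of 14 measured genes, 13 had higher values in the knockout, with a median difference of 0.35 and none called. The markers Krt13 (1.83, 0.80 to 2.87), Krt23 (0.98, 0.33 to 1.62) and Krt6a (1.09, 0.33 to 1.85) had the smallest p of that list. On each array, relative to its own mean, this list lay at −0.20, −0.35 and −0.23 in control and at 0.73, 0.13 and −0.074 in knockout skin, and its part in the Sprr3 difference was not tested.

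The Sprr2 genes form a tandem array of near-identical copies, of which Sprr2a is the best known as a target of stress and inflammatory signals. Sprr2a1 was read only by 3 probe sets that the annotation also assigns to Sprr2a2, and in 1 case to Sprr2a3, so its values cannot be told from those of the copies. The promoter windows of Sprr2a1 and Sprr2a2 are the same over all 300 bases, and that of Sprr2a3 shares an unbroken run of 272 with each. The brightest of the 3 (1439016_x_at) gave 8.35, 7.87 and 7.94 in control and 8.41, 8.22 and 8.07 in knockout skin. The groups overlapped because control 1 lay second highest, and the difference was 0.18 (−0.17 to 0.53). The next (1450618_a_at) gave 8.19, 7.83 and 7.57 against 8.25, 8.16 and 7.99, again with control 1 among the knockouts, and differed by 0.27 (−0.11 to 0.64). The third (1437258_at) lay between 3.18 and 3.56 on all arrays, far below the array median, and was the only member probe set with a lower knockout mean (−0.046, −0.30 to 0.21). The values of the 2 brighter sets changed with single controls: without control 1 they were 0.33 and 0.43, without control 2 the brightest was at 0.090, and without control 3 they were 0.13 and 0.12.

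Sprr2d and Sprr2h lie further along the array and were each read by 1 probe set. Sprr2d was at 6.07, 5.98 and 6.31 in control and at 7.72, 6.26 and 6.56 in knockout skin. Knockout 1 stood alone, and the other 2 knockouts lay close to control 3. The difference was 0.72 (−0.076 to 1.53), and without knockout 1 it dropped to 0.29. Sprr2h was at 5.01, 5.34 and 5.13 in control and at 5.84, 5.34 and 5.63 in knockout skin. The groups were apart only by 0.00085 between control 2 and knockout 2. The difference was 0.44 (0.10 to 0.78, limma adjusted p = 0.909) and 0.33 without knockout 1. The Sprr2h probe set carries the suffix _s_at, which marks probes shared by several transcripts, and the family is close in sequence, so neither gene can be set apart from its copies with certainty. The other Sprr genes with a probe set were Sprr2f (0.014), Sprr2i (0.023), Sprr2j-ps (0.15) and Sprr2k (0.054). Their median difference was 0.038, and 3 of the 4 lay below the array median. None had groups that did not overlap. Every knockout lay above every control in 6.55% of all probe sets, so none among 4 is near that share.

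**Figure D3:**
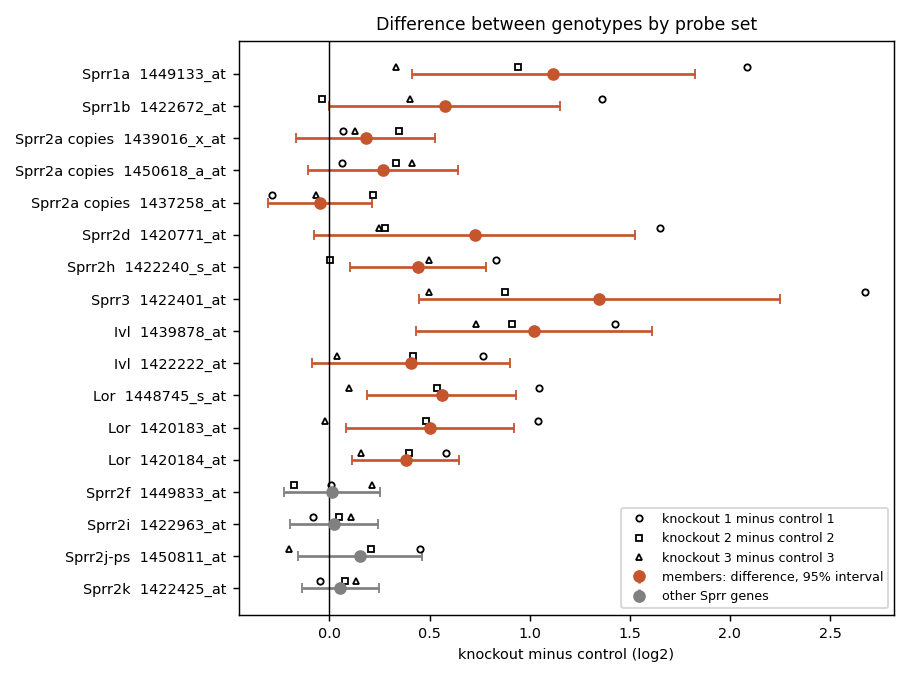
Difference between knockout and control for each member probe set (orange) and for 4 other Sprr genes (grey). The x axis is the log2 difference, bars are 95% confidence intervals from limma, and small open symbols give the difference between arrays of the same replicate number. Intervals of 7 member probe sets lie above 0, and the other Sprr genes lie near 0.

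Knockout 1 was the highest of the 6 arrays in 12 of the 13 member probe sets. Relative to each gene's own mean over the arrays, the mean of the 8 genes was −0.50, −0.41 and −0.22 in controls 1 to 3 and 0.90, 0.074 and 0.15 in knockouts 1 to 3. Without knockout 1, 12 of 13 probe sets still had higher knockout values and the median difference of the 8 genes was 0.39. Of the 13, 6 then had an unadjusted limma p under 0.05 with a higher value, against 2.17% of all probe sets. A mean difference above 0.5 was then found for 3 of the 13 (Sprr1a, Sprr3 and Ivl 1439878_at), against 0.404% of all. The 2 remaining knockouts lay above all controls in 6 of 13, against 12.3% of all probe sets. Without both arrays numbered 1, all 13 had higher values and the median was 0.29.

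Differences within replicate numbers are given as well, although the pairing by number is weak. Once group means were subtracted, arrays numbered 1 had a correlation of 0.568, those numbered 2 of 0.359 and those numbered 3 of 0.124. Control 2 was closer to knockout 3, at 0.422. Both arrays had low mean levels of Y-linked genes (3.12 and 3.15), against 7.88 to 8.39 on the others. Numbers 2 and 3 thus each paired a low with a high Y-linked level. Knockout 1 exceeded control 1 in 12 of 13 member probe sets (46.1% of all probe sets), knockout 2 exceeded control 2 in 12 (52.3% of all), and knockout 3 exceeded control 3 in 11 (52.2% of all). For Ivl (1439878_at) the 3 differences were 1.43, 0.91 and 0.73. For Sprr1a they were 2.08, 0.94 and 0.33, and for Sprr3 2.67, 0.88 and 0.50. For Lor (1448745_s_at) they were 1.05, 0.53 and 0.097. The fit with the number as a block rests on the same weak pairing. With the number as a block, 11 of the 13 had an unadjusted limma p under 0.05 with a higher value, against 5.15% of all probe sets, and again none passed the adjusted threshold (smallest limma adjusted p = 0.335).

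Markers of other skin layers and cell types were set beside the precursors. Relative to its own mean, the list of spinous and granular markers lay at −0.19, −0.20 and −0.20 in control and at 0.59, 0.069 and −0.064 in knockout skin, with 9 of 9 genes higher and a median difference of 0.32. Krt1, the keratin of the spinous layer, differed by 0.32 (0.051 to 0.59), its partner Krt10 by 0.23 (0.015 to 0.44), Krt80, of late differentiation, by 0.57 (0.15 to 0.99) and Calml3, a calmodulin-like protein of differentiated epithelium, by 0.79 (0.17 to 1.41). The basal list lay at 0.046, 0.13 and −0.35 against 0.21, 0.16 and −0.19, with 10 of 12 genes higher and a median of 0.14. The basal keratins Krt5 (0.22, −0.29 to 0.72), Krt14 (0.31, −0.30 to 0.91) and Krt15 (0.30, −0.018 to 0.62) had overlapping groups, and the integrin Itgb1 was at −0.32 (−0.60 to −0.050). None of these markers passed the adjusted threshold.

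When every array was levelled on the mean of Krt5, Krt14 and Krt15, the median over all probe sets shifted to −0.27 and the median of the 8 genes was 0.38. Under that scaling 10 of the 13 probe sets kept a higher knockout value, with Ivl (1439878_at) at 0.75, Sprr1a at 0.84, Sprr3 at 1.07 and Lor (1448745_s_at) at 0.28, while the 2 brighter Sprr2a probe sets turned to −0.094 and −0.0062. Relative to the shift these were 1.02, 1.12, 1.35 and 0.56 for the first 4 and 0.18 and 0.27 for the Sprr2a copies. Levelling takes the same value from all probe sets of an array. The figures relative to the shift must therefore come close to the unlevelled differences, and they add no information. Fibroblast markers had 3 of 11 genes higher (median −0.071) and endothelial and pericyte markers 2 of 12 (median −0.18). The fibroblast receptor Pdgfra (−0.32), Postn (−0.074) and Twist2 (−0.20) and the vascular genes Pecam1 (−0.32), Tek (−0.18) and Emcn (0.19) had the smallest p in them. Both lists were lowest in knockout 1, where the precursors were highest, but also low in control 1, where the mean of the precursors was lowest. Their part in the precursor differences was not tested.

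**Figure D4:**
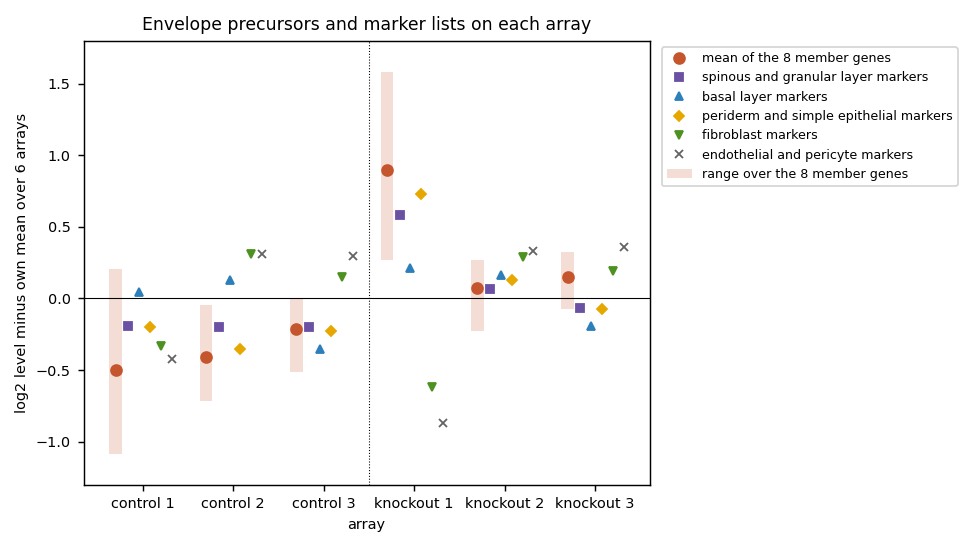
Mean centred level of the 8 member genes (orange, with their range as a bar) and of 5 marker lists on each array. The y axis is the log2 level minus each gene's own mean over the 6 arrays. The member mean is highest in knockout 1 (0.90), where fibroblast (−0.62) and endothelial (−0.87) markers are lowest, and it is below 0 in all 3 controls.

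Melanocyte markers were higher in 7 of 7 genes (median 0.26), with Mlana (0.40), Dct (0.31) and Mitf (0.24) first by p, and were highest in knockout 1 at 0.41. Leukocyte and mast cell markers were higher in 8 of 12 (median 0.23), with the mast cell proteases Cma1 (0.94, 0.46 to 1.42), Tpsb2 (0.97) and Mcpt4 (0.50) first by p. The 4 lower genes, named after their values were seen, were the leukocyte markers Cd68 (−0.13), Adgre1 (−0.11), Csf1r (−0.14) and Ptprc (−0.0056). The leukocyte marker Laptm5, also named after its value was seen, was higher (0.86). That list lay at −0.30, −0.33 and 0.12 in control and at 0.043, 0.26 and 0.21 in knockout skin, so unlike the precursors it was not highest in knockout 1. Skeletal muscle markers were higher in 5 of 13 (median −0.077), with Ttn (−0.41), Myod1 (−0.37) and Ckm (0.34) first by p.

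The other proteins of the envelope gave a mixed picture. Of 32 measured partners, 27 had higher values in the knockout and 5 lower, none called in either direction, with a median difference of 0.13, and 16 of the 32 lay below the array median. Cnfn, or cornifelin, differed by 1.25 (0.48 to 2.01), and the late cornified envelope genes Lce3c and Lce3f by 1.48 (0.56 to 2.41) and 3.04 (1.14 to 4.93). In Lce3f the controls were spread from 6.67 to 9.90 and the knockouts from 10.41 to 12.14. Of the 8 enzymes that cross-link the envelope or process its lipid and protein parts, 7 had higher values, with a median of 0.39 and none called. The lipoxygenases Aloxe3 (0.42, 0.13 to 0.70) and Alox12b (1.23, 0.26 to 2.20), needed for the lipid envelope, and the protease Asprv1 (0.51, 0.077 to 0.94) had the smallest p. The transglutaminases, named here after their values were seen, differed by 0.37 for Tgm1 (−0.21 to 0.94), 0.20 for Tgm5, 0.030 for Tgm2 and −0.0012 for Tgm3.

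Among 29 measured regulators of late differentiation, 21 had higher and 8 lower values, with a median of 0.11 and none called. Pou3f1, a POU-domain factor of the suprabasal epidermis, was at 6.92 ± 0.39 in control and 7.89 ± 0.41 in knockout skin (SD, n = 3), which is 0.97 apart (0.39 to 1.55, limma adjusted p = 0.909). The vitamin D receptor Vdr differed by 0.49 (0.15 to 0.82) and Klf4, a Kruppel-like factor needed for the barrier, by 0.36 (0.067 to 0.66). In each of these 3 genes, which were named for their small p, all knockouts lay above all controls. That held for 6 of the 29 regulators, against 6.55% of all probe sets. The AP-1 subunits of the list were read out for the motif above, after their values were seen. Of 6, 5 had higher values with a median of 0.17, from −0.0100 for Jun to 0.27 for Fosl2 (−0.19 to 0.73). Fosl1 differed by 0.22 (0.023 to 0.42) at a level below the array median, Fos by 0.24 (−0.32 to 0.80), Junb by 0.11 and Jund by 0.018.

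The 5 non-member genes whose 6 array values lay nearest to the mean profile of the members were Klk5, Prss27, Cst6, Arhgap24 and Calml3, of 11843 genes above the median level. The measure was the root-mean-square difference of centred log2 values over 6 arrays, and it was 0.062 for Klk5, 0.074 for Prss27, 0.078 for Cst6, 0.099 for Arhgap24 and 0.11 for Calml3. Klk5 is a kallikrein protease of the outer epidermis, Prss27 a serine protease of stratified epithelia, and Cst6 a cystatin that inhibits cathepsins during cornification. Klk5 was at 6.54, 6.60 and 6.95 in control and at 8.06, 7.13 and 7.20 in knockout skin, which is 0.76 apart (0.18 to 1.34, limma adjusted p = 0.909). Prss27 differed by 0.75, Cst6 by 0.75, Arhgap24 by 0.65 and Calml3 by 0.79. These genes were picked for closeness to the member mean, so differences of similar size follow from the choice and are no separate evidence. Among the members the distance to their own mean profile ran from 0.17 for Sprr1b to 0.40 for Sprr2a1, with 0.39 for Sprr3, 0.21 for Lor and 0.22 for Ivl. The 5 genes are the nearest of 11843 and the members were not picked by distance, so their distances cannot be compared.

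Position on the chromosome was examined because the members are neighbours. In the gene table of GRCm38.p6, used only for order, Lor and Ivl bound a stretch of 25 genes on chromosome 3, of which 14 had a value here and 6 of these were not members. All 14 had a higher mean in the knockout, as did 9528 of the 18193 named genes on the array. Of the 14, 8 are the members already counted above, so this count is no test of the region. The 6 non-members had a median difference of 0.080, from 0.014 for Sprr2f to 1.55 for Prr9 (0.23 to 2.87), a proline-rich gene beside Lor named after its value was seen, whose groups overlapped. The 4 members with the widest differences, Sprr3, Sprr1a and Ivl at one end and Sprr2d within the array, were not all adjacent. Beyond Ivl, the 15 nearest measured genes, mostly of the Lce1 and Lce3 groups, had a median of 0.079 with 9 higher. Most of these 15 had levels below the array median of 6.02, down to 2.77. Lce3c (1.48) and Lce3f (3.04) come next in order and are not among these 15. Beyond Lor, the 15 nearest, mostly S100 genes, had a median of 0.15 with 13 higher.

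**Figure D5:**
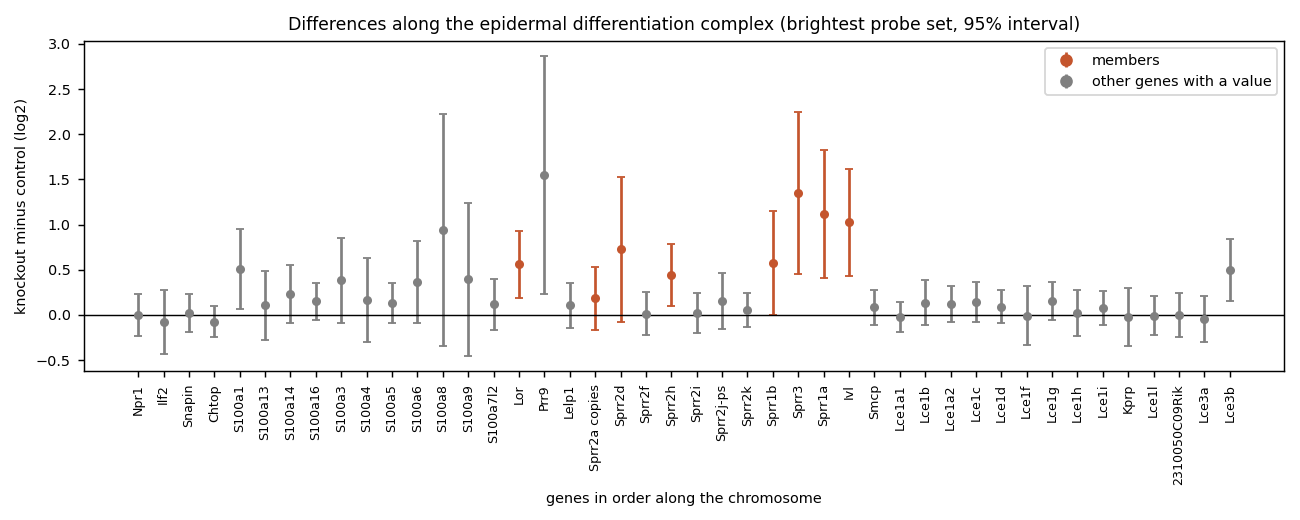
Difference between knockout and control for measured genes in their order along chromosome 3. The y axis is the log2 difference of the brightest probe set with its 95% confidence interval, the x axis lists genes by position, and members are orange. Sprr3, Sprr1a and Ivl stand side by side with differences from 1.02 to 1.35, while the Lce1 genes shown after Ivl lie between −0.023 and 0.16. Most of these Lce1 genes had levels below the array median of 6.02. The plot ends at Lce3b (0.50), before Lce3c and Lce3f.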

How the data were processed

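Skin RNA (Trizol, RNeasy; biotin label) was read on Affymetrix MOE430 2.0 arrays. The deposited values are log2 expression levels that the authors made with RMA, per the submitters' processing notes. RMA is named there with no version or log base, and the base was taken from the range of 2.39 to 14.82. RMA equalises the distributions of arrays, so a shift of most genes would not show. Without scanner files, no detection calls were made. Of 45101 rows, 64 array controls were left out, and low values were kept. Symbols were those of the platform annotation, brought to GRCm38.p6 by Entrez identifier: 34945 probe sets had 1 symbol, 932 several and 9160 none. The brightest probe set (highest mean over 6 arrays) stood for a gene.

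Differences (knockout minus control) were fitted on all 45037 probe sets with limma 3.58.1 (R 4.3.3; two-sided moderated test after lmFit and eBayes, no covariate), Benjamini-Hochberg adjusted, with a threshold of adjusted p under 0.05. The script was tested on simulated data. Arrays of the same replicate number had correlated deviations from their group means (0.568, 0.359 and 0.124). All exceeded 0.1, the criterion set for treating equal numbers as pairs, which rests on the data and not the labels. Control 2 went more with knockout 3 (0.422), so the criterion does not establish pairs. The main fit was therefore unpaired, and the number was used as a block only in an alternative fit. Members and lists were chosen with earlier results of these data known. Genes named were the members, Fzd6, the other Sprr genes, the 3 genes of smallest p in each list with at least 6 measured genes, 5 keratins and the 5 genes nearest to the members' profile. Others are said to be named after their values were seen. Figures used matplotlib 3.10.9.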

Additional observations from a re-analysis of the deposited data

How the results depend on the processing

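None of the 13 member probe sets passed limma's adjusted threshold in any of the 15 alternatives, nor at adjusted p under 0.1, and 7 of 13 had an unadjusted p under 0.05. Over the whole array 0 probe sets passed in the main fit, where 2348 had an unadjusted limma p under 0.05. With the replicate block 3 passed, and with arrays levelled on Krt5, Krt14 and Krt15, 25 did. In the levelled fit the members' p followed the size of their difference alone, as if all had the same spread. Its 25 calls may thus mark only large differences and are not read as detections. The median difference of the 8 genes was 0.65 as reported and 0.29 without both arrays of number 1; leaving out single arrays gave 0.39 to 0.89, the lowest without knockout 1, and array weights gave 0.41 (Sprr2d 0.42). The direction turned only for Sprr2a probe sets: 1439016_x_at (−0.094) and 1450618_a_at (−0.0062) with levelled arrays, and 1437258_at without control 1 (0.050) and without both arrays of number 1 (0.074), its range over left-out arrays being −0.14 to 0.050. With the replicate block no member's call changed. Leaving out probe sets below the median level removed Sprr2h and the dimmest Sprr2a probe set, which left 11. A variance trend, a further quantile normalisation, median centring and a Y-linked covariate gave medians of 0.65 to 0.66. Without knockout 1, Sprr3 was at 0.89, Sprr2d at 0.29, Sprr1b at 0.28 and Ivl (1422222_at) at 0.17. The dimmest Sprr2a probe set (3.18 to 3.56) lay low on the scale, where the lowest values of the arrays were 2.39 to 2.46. This limits how far a decrease could show.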
